A study of Drosophila melanogaster with 3 samples.

Results

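The 8 Hox genes of Drosophila melanogaster (lab, pb, Dfd, Scr, Antp, Ubx, abd-A and Abd-B) were examined for binding of pad, a zinc finger protein. They were found by symbol among 13945 protein-coding genes of the Ensembl annotation, and all 8 matched. Peaks were assigned to a Hox gene when the summit, the position of highest signal in a peak, lay in the gene or within 20 kb of it. Peaks between the genes were kept too, over each gene complex from its leftmost to its rightmost Hox gene plus 20 kb on either side. The authors kept 6659 peaks by an irreproducible discovery rate (IDR) procedure, which compares ranks between replicates. They are the 6659 strongest by signal of the list called on the pooled replicates. A single IDR peak therefore need not be found in every replicate. Of these IDR peaks, 11 lay in a Hox gene or within 20 kb, and 16 lay in the complexes with these flanks.

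The chromatin came from whole adult female flies of 1 transgenic line that stably carries pad with green fluorescent protein (eGFP) joined to its C terminus, and the fusion was precipitated with an antibody against GFP. All 3 samples are biological replicates of that single group, with the age of the flies given as unknown, so no comparison between groups exists. No peak list of untagged flies was used here. The labels do not say whether the flies still have their own untagged pad. Whole animals mix many tissues, and binding in a few cells cannot be told apart from weak binding in many. The annotated pad gene lies on 3R at 16342318 to 16345829, which is 291 kb from the left edge of the bithorax region.

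Each replicate list held 30000 called regions, of which 92, 75 and 95 fell in the Hox complexes in replicates 1, 2 and 3, and 90 of the 30000 regions of the pooled list did so. The pooled list is labelled as peaks and background used as input for IDR, so its weaker regions can be background. Read depth is unknown because the lists hold no counts. Peak strength is therefore given as the rank by the deposited signal value within a list, where rank 1 is the strongest. All positions are on the dm6 build.

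Hox genes encode homeodomain transcription factors that give each body segment its identity along the head-to-tail axis. In this fly they sit in a pair of complexes on chromosome arm 3R, the Antennapedia complex for head and anterior thorax (lab, pb, Dfd, Scr, Antp) and the bithorax complex for posterior thorax and abdomen (Ubx, abd-A, Abd-B). Long regulatory regions between the genes, among them the bxd and iab regions of the bithorax complex, hold enhancers, Polycomb response elements that keep genes silent or active through cell division, and boundary elements that separate neighbouring domains. No annotation of those elements was used here, so peaks were placed only against genes and transcripts.

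The sequences shown are those at the strongest peaks and at the start site peak, namely 50 bp to either side of the summits of the 3 strongest IDR peaks of each complex and of the only IDR summit within 250 bp of a Hox start site, from the RefSeq Release 6 genome (dm6). Capitals mark matches, on either strand, to the words GAGAG (bound by GAGA factor), GCCAT (the core of the Pho site), TATCGATA (the DNA replication-related element), TGATNNAT (a Hox and Exd composite site), TGCATA (part of the Su(Hw) site), CAACACTG, AGGGGAAA and GAGCGAGA. The last 3 words had been found earlier in these same data. Overlapping matches run together, and GAGAG can overlap itself and GAGCGAGA.
lab upstream peak, chr3R:6683380-6683480, plus strand: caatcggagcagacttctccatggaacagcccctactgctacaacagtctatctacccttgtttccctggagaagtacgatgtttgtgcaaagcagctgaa
Scr start site peak, chr3R:6848700-6848800, plus strand: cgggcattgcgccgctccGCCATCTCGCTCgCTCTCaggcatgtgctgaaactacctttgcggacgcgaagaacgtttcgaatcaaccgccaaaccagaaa
lncRNA:CR45559 peak, chr3R:6893298-6893398, plus strand: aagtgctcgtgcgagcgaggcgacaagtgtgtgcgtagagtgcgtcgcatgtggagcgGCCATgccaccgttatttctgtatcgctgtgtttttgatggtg
Antp intron peak, chr3R:6912509-6912609, plus strand: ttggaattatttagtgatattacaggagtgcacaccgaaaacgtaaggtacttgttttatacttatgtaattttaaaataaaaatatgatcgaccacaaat
Ubx intron peak, chr3R:16703063-16703163, plus strand: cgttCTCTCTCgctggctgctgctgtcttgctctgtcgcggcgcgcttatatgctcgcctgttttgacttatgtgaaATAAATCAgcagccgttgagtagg
bxd peak, chr3R:16764130-16764230, plus strand: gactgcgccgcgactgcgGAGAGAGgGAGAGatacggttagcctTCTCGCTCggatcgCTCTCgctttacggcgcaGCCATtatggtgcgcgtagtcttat
CG18622 promoter peak, chr3R:16987796-16987896, plus strand: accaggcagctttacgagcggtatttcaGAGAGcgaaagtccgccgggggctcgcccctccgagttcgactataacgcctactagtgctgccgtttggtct

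The bxd window held 4 matches to GAGAG, 1 to GCCAT and 1 to GAGCGAGA. The Ubx intron window held 2 matches to GAGAG and 1 to TGATNNAT, and the Scr window held 1 match to GAGAG, 1 to GCCAT and 1 to GAGCGAGA. The lab upstream and Antp intron windows held no match to any of the 8 words. G and C made up 27.7% of the Antp intron window and 59.4% of the bxd window, the lowest and highest of the 7.

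Most Hox genes had an IDR summit in their neighbourhood, but 1 had one at a start site. An IDR summit lay in the gene or within 20 kb of 6 of 8 Hox genes, against 82.1% of all coding genes and 84.9% of the 1013 coding genes of 20 kb or longer. The exceptions were pb and Dfd, which had none. A summit within 250 bp of an annotated start site was found for 1 of 8 Hox genes, Scr, against 24.4% of all coding genes and 34.4% of the long ones. Within the gene or 1 kb of it, 4 of 8 Hox genes had a summit (Scr, Antp, Ubx and Abd-B), against 39.2% of coding genes and 61.1% of the long ones. Inside the gene itself the count was the same 4 of 8, against 16.1% of coding genes, most of which are shorter, and the share of the long ones was not computed. All Hox genes but lab and Dfd are 20 kb or longer, so the long genes are the nearer background.

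Counts at other distances and in other lists lay on both sides of the background or near it. An IDR summit lay in the gene or within 5 kb of 5 Hox genes against 57.9% of coding genes, within 10 kb of the same number against 70.3%, and within 50 kb of all 8 against 93.5%. A start site summit was found for no Hox gene at 100 bp against 13.7%, and for Scr alone at 500 bp and at 1000 bp against 29.7% and 33.5%. Among the 10000 strongest peaks of replicates 1, 2 and 3, 7, 6 and 7 Hox genes had a summit in the gene or within 20 kb, against 87.3%, 85.5% and 86.7% of coding genes. Among the 10000 strongest pooled peaks 6 had one, against 86.5%. The Hox share was below that of all coding genes for 20 kb and for start sites at 250 bp in the IDR list, and close to it in replicates 1 and 3 at 20 kb.

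By their medians, Hox genes had fewer summits and weaker strongest peaks than long coding genes. The median number of IDR summits inside a gene and its 20 kb surroundings was 1 over the 8 Hox genes, 3 over all coding genes and 4 over long coding genes. Among the long coding genes 15.1% had none. The strongest peak within that distance had a median rank of 4500, 5621 and 3836 over the Hox genes in replicates 1, 2 and 3. Over all long coding genes with a peak the medians were 1353, 1408 and 1468. The Hox median was weaker in all 3 lists. Ubx and Abd-B lay apart from the rest, as their strongest peaks ranked between 50 and 458 in every replicate while the strongest peaks of the other 6 genes ranked 2225 or weaker. For Abd-B that peak lay outside the gene, at a start site of its neighbour CG18622. The IDR peak inside Abd-B ranked 5618, 1656 and 3903 in replicates 1, 2 and 3. For Antp, too, the strongest peak lay outside the gene, at lncRNA:CR45559, and the IDR peak inside it ranked 4505, 5650 and 9322.

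**Figure D1:**
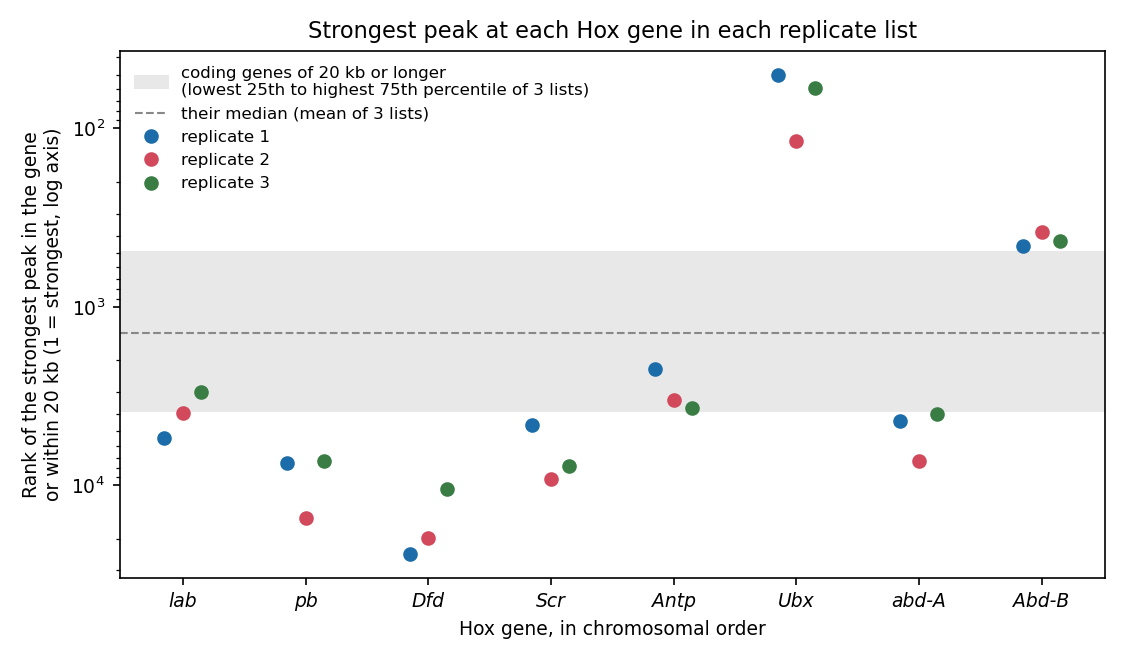
Rank of the strongest peak in each Hox gene or within 20 kb (log axis, 1 at the top), with 1 dot per replicate. The grey band spans the 25th to 75th percentile of coding genes of 20 kb or longer (lowest and highest of the 3 lists) and the dashed line is their median (mean of the 3 lists). Ubx (50, 118 and 59) and Abd-B (458, 381 and 427) sit above the band, Antp inside it, and pb, Dfd, Scr and abd-A below it. The Abd-B dots are those of the peak at CG18622, outside Abd-B. The Antp dots are those of the peak at lncRNA:CR45559, outside Antp, and the IDR peak inside Antp (4505, 5650 and 9322) would lie below the band. The replicate 2 dot of Scr (9247) and the replicate 1 dot of pb (7515) are those of peaks upstream of ftz and bcd.

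Ubx, which makes the posterior thorax differ from the wing-bearing segment and gives halteres in place of wings, carried by far the strongest peak of either complex. It lay in an intron at 3R:16702683-16703486, was 804 bp wide, had its summit at 16703113 and ranked 79 of 6659 IDR peaks, with a signal of 8826. Its ranks were 50, 118 and 59 in replicates 1, 2 and 3, a mean of 75.7 ± 36.9 (SD, n = 3). None of the 6 annotated Ubx transcripts there has an exon at the summit. The summit lay 31313 bp downstream of the single annotated Ubx start site, and the nearest start site of any gene, that of asRNA:PS4, was 17014 bp away.

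The Ubx start site itself had no IDR summit. A pooled peak of rank 19417 lay within 250 bp of it, with a counterpart in replicate 2 alone at rank 19880. Besides the intronic peak, the other IDR summit within 20 kb of Ubx lay beyond the 3′ end of the gene at 16647110, 106 bp upstream of CG10324. It ranked 5091, with replicate ranks of 2934, 6933 and 6404. Among the 10000 strongest peaks of each replicate, 3, 4 and 4 lay in Ubx or within 20 kb.

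The region between Ubx and abd-A, 72.8 kb long, held a single IDR summit, at 16764180 in an intron of lncRNA:bxd. Noncoding transcripts of that name run through the bxd regulatory region, which controls Ubx. The peak ranked 785 with a signal of 1638, and its ranks were 537, 1210 and 544 in replicates 1, 2 and 3. It was weaker in replicate 2 than in the others. It lay 29754 bp upstream of the Ubx start site, 9009 bp from the nearest bxd start site and 12846 bp from the nearest coding start site, that of CG31275. This is the window above with the largest number of GAGAG matches.

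abd-A, which specifies much of the abdomen, had no IDR summit inside the gene. Its start site at 16830049 had a peak in all 3 replicates, at ranks 5279, 8978 and 8800, and in the pooled list at rank 7389, below the 6659 that passed IDR. It was the only Hox start site with a peak among the 10000 strongest of every replicate. The nearest IDR summit, at 16847419, lay 17370 bp upstream in introns of lncRNA:iab8 and MSAmiP and ranked 5679, with replicate ranks of 6364, 7288 and 4303. A peak inside the gene at 16811947 ranked 7014 in the pooled list and 5843 and 8358 in replicates 1 and 3, with no counterpart in replicate 2.

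The interval between abd-A and Abd-B, which holds iab regulatory regions and the noncoding transcripts lncRNA:iab4 and lncRNA:iab8, was the longest stretch between neighbouring Hox genes and had the most IDR summits. It is 97.2 kb long and held 5, and among the 10000 strongest peaks of each replicate it held 6, 6 and 6. The strongest, at 16869478, ranked 1331 (857, 2005 and 1111 by replicate) and lay in introns of lncRNA:iab8 and MSAmiP, 39429 bp upstream of abd-A. The weakest, at 16850053, ranked 6489 (7734, 9734 and 3999) and lay 49 bp downstream of the start site of lncRNA:iab4, whose transcript is the precursor of a microRNA directed at Ubx. Besides the summit nearest to abd-A, the others, at 16882665 and 16899060, ranked 5005 and 5272, both in an intron of lncRNA:iab8. None of these 5 lay within 250 bp of the start site of a coding gene.

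Abd-B, which specifies the posterior abdomen and genitalia, had an IDR summit inside the gene at 16970081, in an intron, 1507 bp upstream of the nearest of its 6 annotated start sites. It ranked 2545, but its ranks of 5618, 1656 and 3903 differed widely, with replicate 2 the strongest. Start sites of Abd-B had no IDR summit but had pooled peaks, at rank 10245 for the site at 16934242 (27593, 9316 and 9647 by replicate) and 19519 for that at 16960281. Among the 10000 strongest peaks of the replicates, 8, 6 and 10 lay in Abd-B or within 20 kb, the highest count of any Hox gene in each list.

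The strongest peaks assigned to Abd-B by distance lay at start sites of another gene. CG18622, which lies beyond the 5′ end of Abd-B, had a summit at 16987846, 114 bp upstream of its outermost start. It had rank 397 and signal 2746 (458, 381 and 427 by replicate). A second summit, at 16986659, lay 191 bp downstream of another annotated CG18622 start and ranked 802 (618, 836 and 1031). They lay 15610 and 14423 bp from the nearest Abd-B start. Without them the best rank at Abd-B would be that of the intronic peak, 2545. The last IDR summit of the region, at 16992004, ranked 6363 and lay 26 bp downstream of the lncRNA:CR45221 start and 126 bp upstream of that of EMC2B. Its peak overlaps an annotated Cr1a transposable element, and the treatment of reads that match several copies is not given in the sources used here.

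**Figure D2:**
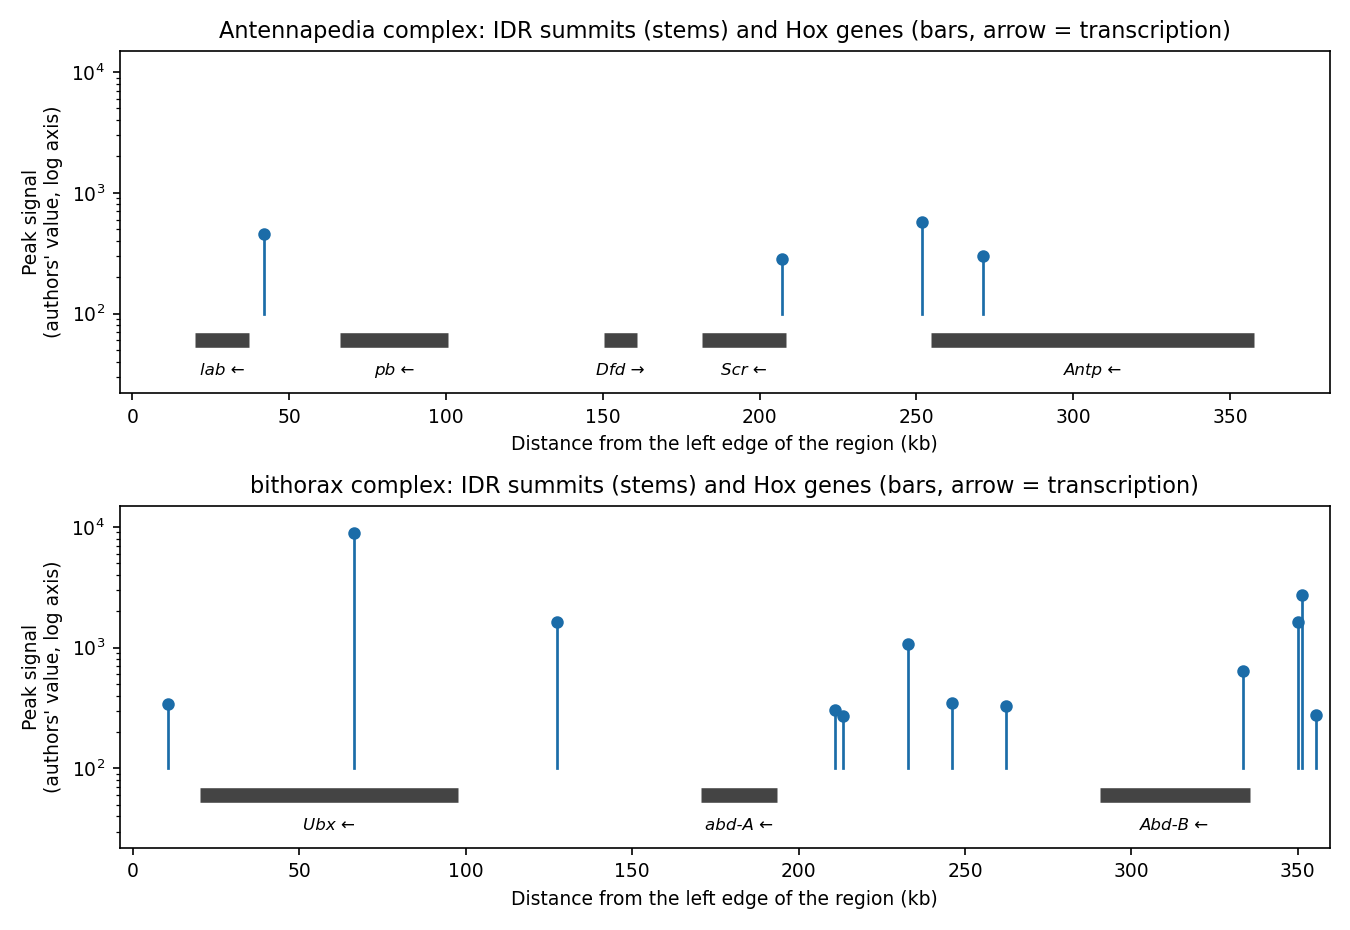
Position (kb from the left edge of the region, 20 kb flanks included) and signal (the authors' value, log axis) of the 16 IDR summits, drawn as stems over the Hox genes as bars with arrows for the direction of transcription. The 4 stems of the Antennapedia complex reach signals of 283 to 575, while the stem in Ubx reaches 8826 and the one at CG18622 reaches 2746.

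In the Antennapedia complex, none of the 4 IDR summits ranked among the 1000 strongest, against 4 of 12 in the bithorax complex and 1000 of 6659 over the IDR list. Of the bithorax peaks counted, those at CG18622 (ranks 397 and 802) lie in the flank and those at Ubx and bxd between the Hox genes. The strongest Antennapedia peak, at 6893348, ranked 2878 with a signal of 575, and its replicate ranks were 2225, 3337 and 3673. It lay in an exon of lncRNA:CR45559, 114 bp downstream of the start site, between Scr and Antp and 39492 bp from the nearest Antp start site. Antp, which specifies thoracic segments and legs, also had a summit in an intron at 6912559, of rank 5787 (4505, 5650 and 9322), 20281 bp downstream of its nearest start site. That position is in an intron of the overlapping gene CG46458 as well. Its 3 annotated start sites had no peak in the pooled list, and replicate 2 alone had one, of rank 29703.

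Scr, which acts in the labium and prothorax and directs salivary gland formation in the embryo, held the only IDR summit near a Hox start site. It lay at 6848750, 245 bp upstream of the start site at 6848505, and 1 annotated transcript crosses the position as an intron. It ranked 6186 with a signal of 283, close to the end of the IDR list, and replicates 1 and 3 had it at ranks 4611 and 7822. Replicate 2 had no overlapping peak and none at either Scr start site. The count of Hox genes with a summit at a start site is therefore 0 when IDR peaks must also be found in the pair of replicates 2 and 3, or 1 and 2.

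lab, which acts in the head and midgut, had its nearest IDR summit at 6683430, 4840 bp upstream of the lab start and 1015 bp upstream of that of Edg84A, a cuticle gene. The peak ranked 3703 (5457, 3954 and 3002 by replicate) and was intergenic. The lab start site at 6678590 had peaks of rank 9201, 12872 and 17267 in the 3 replicates and 11516 in the pooled list.

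pb and Dfd, which specify mouthparts and gnathal head segments, were the only Hox genes with no IDR summit within 20 kb. In the pooled list their strongest peaks within that distance ranked 10900 and 18440, weaker than those of the other Hox genes, but in replicate 3 the strongest at pb (7302) was above that at Scr (7822). The nearest IDR summit to a start site of pb was 58633 bp away, and to that of Dfd 56914 bp. At the pb start site the pooled peak ranked 11640, with counterparts at 15236 and 7302 in replicates 2 and 3 and none in replicate 1. Within 20 kb of Dfd the strongest peak of each replicate ranked 24284, 19890 and 10511, so none was among the 10000 strongest of any list. Dfd had no peak at its start site in any list. The 49.8 kb between pb and Dfd and the 20.7 kb between Dfd and Scr had no IDR summit, and the latter had none among the 10000 strongest of any replicate.

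Below the strength needed for the IDR list, more Hox start sites had called regions, and such weak regions can be background. Peaks among the 10000 strongest lay within 250 bp of a start site of 3, 2 and 4 of 8 Hox genes in replicates 1, 2 and 3, against 31.1%, 33.3% and 30.6% of coding genes. The genes counted were not the same in each list, and abd-A was the only one in all 3. Among the 10000 strongest of the pooled list it was 2 of 8, against 33.0%. In the whole pooled list of 30000 regions, 6 of 8 Hox genes had a start site peak, against 50.7% of coding genes, with ranks from 6186 for Scr to 19417 for Ubx as each gene's best. Dfd and Antp were the ones without.

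Several peaks lay just outside the IDR list. The strongest in the Antennapedia complex had rank 6701 and a signal of 262, at 7000971 in an exon of lncRNA:CR45899 and 1743 bp from an Antp start, and replicate 2 lacked it. The strongest in the bithorax complex had rank 7000 and a signal of 251, at 16958199 in an Abd-B intron, with replicate ranks of 5396, 8554 and 7269. The weakest Hox complex peak inside the list, at lncRNA:iab4, had a signal of 271.

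The replicates ranked the 16 peaks much as they ranked IDR peaks in general. Of the 16, 15 were found among the 10000 strongest peaks of all 3 replicates, with at least 50% of either peak covered, against 90.8% of all IDR peaks, and the exception was the Scr peak. The median ratio of the weakest to the strongest replicate rank was 1.82 for the 15 and 1.79 for the 6479 IDR peaks found in all 3 whole lists. Replicate 1 gave the strongest rank for 9 of the 15, replicates 2 and 3 for 2 and 4, and over the 6479 replicate 1 did so for 2611. The median rank of the 16 in the IDR list, 4354, was weaker than that of the list, 3330.

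**Figure D3:**
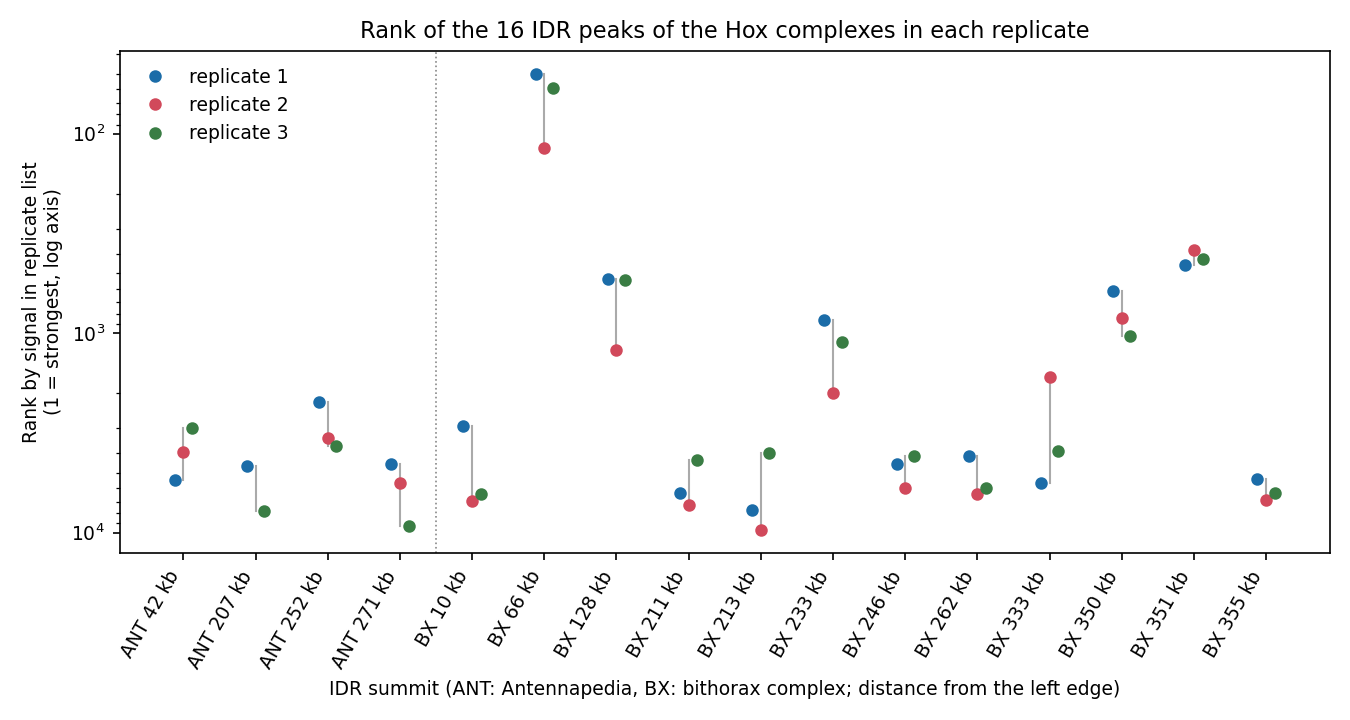
Rank of each of the 16 IDR peaks in the 3 replicate lists (log axis, 1 at the top), ordered along the Antennapedia (ANT) and bithorax (BX) regions and named by kb from the left edge. The Ubx intron peak (BX 66 kb) ranks 50 to 118 in every replicate, and the Scr peak (ANT 207 kb) has dots for replicates 1 and 3 alone.

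Per length, the Antennapedia complex had fewer summits than the bithorax complex, and both had fewer than the rest of arm 3R. With flanks, the IDR list gave 10.6 summits per Mb in the Antennapedia complex, 33.7 in the bithorax complex and 49.2 on the rest of 3R. Among the 10000 strongest peaks of each replicate the densities were 34.4, 23.8 and 21.2 per Mb in the Antennapedia complex, a mean of 26.5 ± 7.0 (SD, n = 3). In the bithorax complex they were 56.2, 47.8 and 64.7, a mean of 56.2 ± 8.44 (SD, n = 3). The ranges of the complexes did not overlap, and each replicate had fewer summits per Mb in the Antennapedia complex, with differences (Antennapedia minus bithorax) of -21.8, -24.0 and -43.5. An exact two-sided permutation test over the 3 pairs gave p = 0.25, the smallest that 3 pairs allow. The flanks added summits to the bithorax complex alone in the IDR list. Without them it held 8 of its 12 summits, 25.3 per Mb, and the Antennapedia complex kept its 4, 11.8 per Mb, against 49.2 on the rest of 3R. The differences in replicates 1, 2 and 3 were then smaller, at -17.7, -17.1 and -32.9.

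The rest of 3R held 72.2 ± 0.634 per Mb (SD, n = 3) in the same lists. The ratio of both complexes together to the rest of the arm was 0.628, 0.492 and 0.580 by replicate, and 0.443 in the IDR list. Coding genes are sparser in these regions, at 66.2 per Mb in the Antennapedia and 53.4 in the bithorax region against 107 on 3R, whereas annotated start sites of all genes are about as dense, at 164 and 160 against 171. Windows of the same length along the arms held a median of 19 IDR summits for the Antennapedia length (25th to 75th percentile 10 to 27), where that complex had 4. For the bithorax length they held a median of 17 (9 to 25), where that complex had 12. As few summits as in the complex were held by 15.5% of the windows of Antennapedia length and 34.7% of those of bithorax length.

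Away from start sites, the place of the bithorax complex against the arm depended on the distance, the list and the flanks, which are included below unless stated. Counting only IDR summits over 1 kb from any start site, it held 16.9 per Mb, the Antennapedia complex 5.29 and the rest of 3R 12.6. In the replicates these densities were 28.1 ± 7.44 in the bithorax complex, 9.71 ± 3.06 in the Antennapedia complex and 21.7 ± 1.18 on the rest of the arm (SD, n = 3 each). The bithorax value was above the rest of 3R in replicates 1 and 3 and below it in replicate 2, with ratios of 1.37, 1.53 and 0.967. With flanks, the difference from the arm was thus within the spread between replicates. Without flanks the ratios were 1.54, 1.09 and 1.73 in replicates 1, 2 and 3, above the arm in each, and 1.51 in the IDR list. The mean without flanks was 31.7 ± 8.38 against 21.6 ± 1.18 on the rest of the arm (SD, n = 3 each). Over the whole pooled list with flanks, however, the bithorax complex held 70.3 per Mb over 1 kb from a start site against 105 on the rest of 3R. With a distance of 250 bp its ratio to the rest was 0.810 in the IDR list, 0.763 in the whole pooled list and 1.00, 0.632 and 1.15 in replicates 1, 2 and 3. The Antennapedia value over 1 kb from a start site was below the rest in every replicate, with ratios of 0.585, 0.390 and 0.360. Over both complexes 8 of 16 IDR summits (50%) lay over 1 kb from a start site, against 26.3% of all IDR summits.

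**Figure D4:**
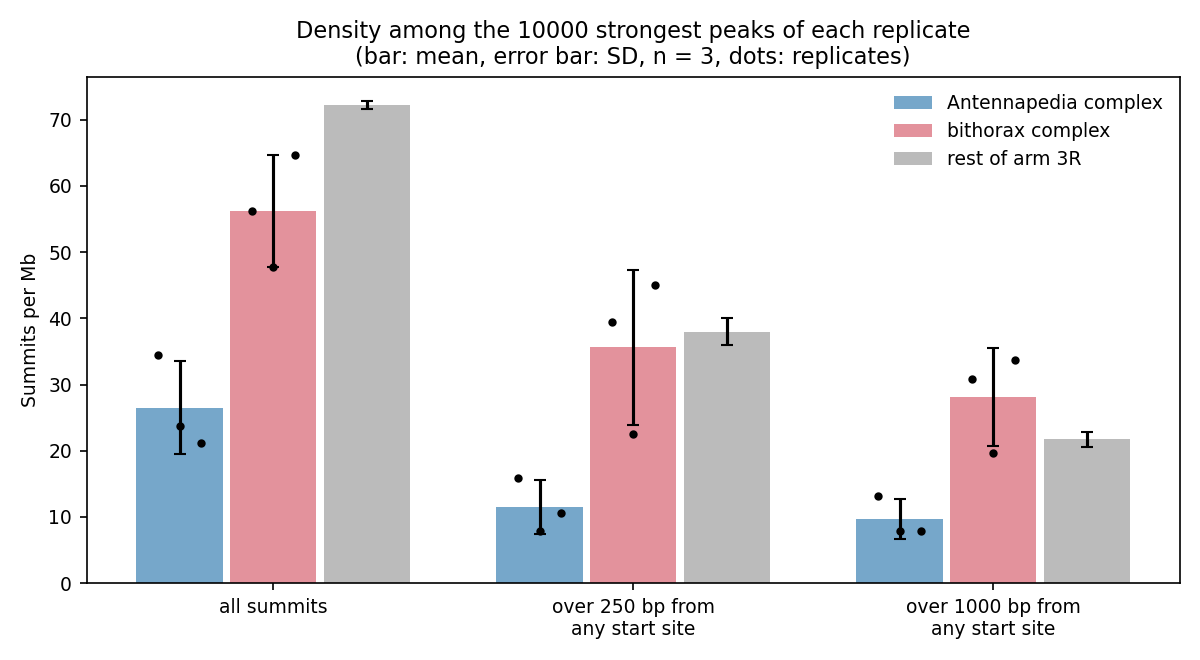
Summits per Mb among the 10000 strongest peaks of each replicate in the Antennapedia complex, the bithorax complex (each with 20 kb flanks) and the rest of arm 3R, for all summits and for those over 250 bp and over 1000 bp from any start site. Bars are means, error bars SD over 3 replicates and dots the replicates. Over all summits the means are 26.5, 56.2 and 72.2, and over 1000 bp from a start site they are 9.71, 28.1 and 21.7.

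The words searched are short, so their counts are set beside those for all IDR summits in windows of the same length. GAGAG was held by 8 of 16 Hox complex windows (50%) and by 20.8% of all 6659, and GCCAT by 7 of 16 (43.8%) and 15.9%. In windows 300 bp to either side of the summits, GAGAG was in 2 of 32 (6.25%) around the Hox complex summits and 15.9% around all. GCCAT was in 15.6% and 16% of those. Both words were thus in a higher share of the Hox complex windows than of all at the summits and not beside them, over a count of 16.

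Among the 8 Hox complex summits over 1 kb from a start site, 4 held GAGAG and 4 held GCCAT, against 25.3% and 17.8% of the 1748 IDR summits so placed. TGATNNAT was in 2 of 16 against 5.15%, TGCATA in 2 against 6.74%, GAGCGAGA in 2 against 3.62% and AGGGGAAA in 1 against 2.94%. TATCGATA and CAACACTG were in none of the 16, against 2.21% and 2.91% of all. A match is a description of the letters and says nothing of which protein binds there.

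Long coding genes elsewhere with the same number of IDR summits inside them and up to 20 kb away, and then the nearest best rank, were sought among 1005. Ubx, with 2 summits and a best rank of 79, was most like Muc14A (113), Sema2a (118) and Dscam4 (26). Abd-B, with 4 and 397, was most like CG43102 and tinc (392 each) and CenG1A (432). Antp, with 2 and 2878, was nearest to vn (2849), Ac78C (2821) and pHCl-1 (2964). For the genes with 1 summit, lab at 3703 was nearest to mAChR-B (3733), esn (3774) and klg (3815). Scr at 6186 was nearest to Octalpha2R (6198), CG44837 (6208) and GluClalpha (6225), and abd-A at 5679 to CG46301 (5656), tn (5643) and dpr11 (5635). pb and Dfd shared their count of 0 with 152 of the long genes.

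Start sites of other genes in the complexes were counted in the same way, where 24.4% of all coding genes and 6.35% of all noncoding RNA genes had an IDR summit. In the Antennapedia region, none of 21 other coding genes and 1 of 26 noncoding RNA genes, lncRNA:CR45559, had an IDR summit within 250 bp of a start. The 5 genes of that complex that are not homeotic, zen, zen2, bcd, ftz and Ama, had none in the gene or within 1 kb. Peaks of pooled rank 10648 and 10900 lay 173 bp upstream of ftz and 208 bp upstream of bcd. In the bithorax region the marked genes were CG10324, CG18622 and EMC2B among 17 coding genes and lncRNA:iab4 and lncRNA:CR45221 among 17 noncoding RNA genes. The counts are small, and they were not tested against the shares over all genes.

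Genes that work with or on the Hox genes were counted by lists drawn up with earlier results of these data known. Of 6 Hox cofactors, 4 had an IDR summit within 250 bp of a start, against the 24.4% of coding genes. They were tsh (rank 14), hth (rank 129) and tio (rank 181), which encode zinc finger and homeodomain partners of Hox proteins, and disco-r (rank 5524). All but disco-r ranked far above the Scr peak, the only IDR peak at a Hox start site, which is near the end of the list. exd, whose product binds DNA beside Hox proteins, had none in the gene or within 1 kb. Of 9 gap and pair-rule regulators, which set the early Hox domains, 2 had a start site summit, cad (rank 459) and Kr (rank 6025).

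Of 18 matched Polycomb group genes, which keep Hox genes silent, 10 (55.6%) had a start site summit, against 24.4% of all and 34.4% of long coding genes. The strongest were at ph-d (rank 52), which encodes a subunit of a Polycomb repressive complex, and E(z) (rank 671), which encodes the histone methyltransferase of another. Sfmbt (rank 1289), a partner of the DNA-binding protein Pho, and Su(z)12 (rank 1456) followed. Of 18 trithorax group and recruiter genes, which keep Hox genes active or bring chromatin factors to them, 7 (38.9%) had one, led by brm (rank 363), the ATPase of the Brahma remodelling complex, lolal (rank 1042), Trl (rank 1333), which encodes GAGA factor, and Snr1 (rank 1848), a further Brahma subunit. In the gene or within 1 kb, 12 (66.7%) and 13 (72.2%) genes of these lists had a summit. The shares were 39.2% of coding genes and 61.1% of the long ones. Of 13 genes for proteins that bind boundary elements, 5 (38.5%) had a start site summit, led by Chro (rank 296), Cp190 (rank 639), BEAF-32 (rank 2729) and CTCF (rank 3113). The trithorax and boundary shares at start sites were near that of long coding genes and above the 24.4% of all coding genes. The lengths of the list members were not compared with either background.

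Of 12 genes known as Hox targets, 4 (33.3%) had a start site summit, near the 24.4% of all and 34.4% of long coding genes. They were fkh (rank 502), scb (rank 3115), Dll (rank 3524) and vg (rank 4516). Homeobox genes in other clusters, used as a reference for developmental gene clusters, had one at 7 of 15 (46.7%), led by en (rank 209), inv (rank 597), mirr (rank 701) and caup (rank 801). These start site peaks all ranked above the Scr peak, but at 6186 of 6659 most IDR peaks do. The 8 Hox genes at 1 of 8 (12.5%) had the lowest share of the lists other than the Antennapedia complex genes that are not homeotic. The lists differ in size and their shares were not tested against each other.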

How the data were processed

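Per the files' deposited derivation notes, the authors called 30000 regions on every replicate and on a pool of all 3, using a control alignment, and then selected reproducible peaks by IDR. Neither aligner nor caller is given in the sources used here. The deposited signal value of a region has no stated scale and served to rank peaks within a list. Signals printed or drawn are those of the IDR and pooled lists. The deposited −log10 q-value was read and not used to select peaks. Summits came from the deposited offset within each peak. Read depth is unknown, and the labels do not say beyond the word biological that replicates were separate fly collections, so spreads and the p-value cover only what differed between these samples.

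From these files, summits were placed (1-based, dm6) against genes, 23581 start sites and transposable elements of Ensembl release 115 on the same Release 6 assembly. All peaks lay within the arms' lengths. A start site summit lay within 250 bp of a start site, and an IDR peak was found in a replicate when at least 50% of either peak was covered among the 10000 strongest. Densities were compared between complexes by an exact permutation (sign flip) test over replicates, and everything else is description. Backgrounds are all coding genes of 6 arms, those of 20 kb or longer, all IDR peaks or the rest of 3R. The scripts (Python 3.11.15, numpy 2.4.6, pandas 2.3.3, scipy 1.17.1, matplotlib 3.10.9) were tested on simulated data.

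The members, the 8 gene lists and the 8 words were chosen with earlier results of these data known. Of 97 list symbols, 1 (calypso) was not matched. The genes named are the Hox genes with their strongest and start site summits, the 10 strongest IDR peaks of each complex, other complex genes with a start site summit, up to 4 members of each list by signal at a start site and the 3 most alike long genes. Also named, after their values were seen, were peaks near the end of the IDR list or below it, and list members without a summit (exd, bcd, ftz, Ama). Alternatives covered the list used, the distance to a gene or start site, flanks, overlap, merged regions and leaving out each replicate. The dm3 lists were not used.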

Additional observations from a re-analysis of the deposited data

How the results depend on the processing

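No paired analysis was possible because the samples form 1 group, and the only pairing is that of the complexes within each replicate. Counts were taken as moved past 1.5 times the reported value, and ratios, percentages and mean ranks past 1 SD between replicates, which for the median rank is 46.6. By these limits, 108 of 152 alternative values stayed and 44 moved. A reversal was scored only for the density ratio to the rest of 3R, which stayed below 1 in every alternative. The other results were not scored for a change of direction. With the 1000 strongest IDR peaks alone, Hox genes with a summit within 20 kb fell from 6 to 2, those with one at a start site from 1 to 0, summits near Hox genes from 11 to 3, Antennapedia summits from 4 to 0 and bithorax summits from 12 to 4, and the density ratio to the rest of 3R rose from 0.443 to 0.756. The 10000 strongest pooled peaks gave 2 genes with a start site summit, 23 summits near Hox genes, 10 Antennapedia summits and a ratio of 0.525, and the whole pooled list gave 6 such genes and 81 summits. A start site distance of 100 bp or the outermost 5′ end alone gave 0 genes, and a distance of 10 kb gave 7 summits near Hox genes. Merging regions gave a ratio of 0.520 and dropping the flanks 0.373. Requiring the 5000 strongest of each replicate found 6 of the 16 peaks in all 3, where 10000 found 15. For counts and densities, leaving out a replicate meant keeping the IDR peaks found among the 10000 strongest of both others, without a new IDR run. This gave 0 to 1 genes with a start site summit, 0 without replicate 1 or without replicate 3, because replicate 2 lacked the Scr peak. Averaging ranks over the remaining replicates gave a median over Hox genes of the mean rank between 3492 and 3696, against 3608. Lists without counts cannot show whether a missing peak is absent or below detection. The causes of these shifts were not tested beyond the settings' own construction, namely fewer or more peaks and other distances.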
